A study of Capra hircus with 20 samples.

Results

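Surface proteins are the usual means of telling stromal progenitors, muscle satellite cells, endothelium and blood cells apart. Here 10 genes for such proteins were followed in goat adipocyte cultures: PDGFRA, PDGFRB, CD34, THY1, NT5E, ENG, VCAM1, NCAM1, CD44 and DPP4. They were chosen by name. Every transcript of the mRNA table that carried a chosen official symbol was taken, and the FPKM values of a gene's transcripts were added up in each library. FPKM is the number of fragments per length of transcript and number of mapped reads, so levels of different genes can be compared per length. In this way 9 of the 10 genes were found, with 40 of the 43766 transcripts and 9 of the 20587 symbols of the table, and VCAM1 was not analysed here.

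RNA was sequenced from 4 groups of 5 libraries, grown from tissue of 5 male Jianzhou Daer goats (Capra hircus) aged 7 days. Intramuscular preadipocytes (IMPA) came from the longissimus dorsi, the long muscle of the back, and subcutaneous preadipocytes (SPA) from subcutaneous fat, and both were collected at day 0 of induction. Intramuscular adipocytes (IMA) and subcutaneous adipocytes (SA) were the same kinds of culture after 3 days in induction medium with oleic acid (50 µM, as the notation of the methods is read here). All 4 groups shared the release of cells by type I collagenase, the DMEM/F12 medium with fetal bovine serum and the use of passage 3 cells, and the methods name no step that sorts cells by a surface protein. The labels number the libraries of a group from 1 to 5 without tying a number to a goat, so the p values below measure the spread between these libraries, which may in part be technical. Cultures at day 0 and at day 3 differ in time in culture as well as in the medium, and no group without induction at day 3 was analysed here, so the effects of oleic acid and of time cannot be told apart, and a change at or after induction below means day 3 against day 0. Since each group enters several comparisons, the comparisons are not independent of each other.

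The FPKM of a library summed to between 527426 and 596669, of which the mRNA table held between 67.2% and 75.3%, and between 15126 and 16961 symbols per library were above 0. The table carries no fragment counts, so the counts behind an FPKM value were not known here, although the study lists clean and mapped reads for each library. By the study's mapping table, every IMPA library had a larger mapped share of reads than every library of the other groups. Every SA library had a smaller mapped share than every IMA and every SPA library. In each pairwise comparison below, mapped share and group thus cannot be told apart. By the study's read counts, SPA replicate 1, SA replicate 5 and every intramuscular library lost a smaller share of reads at cleaning than the other subcutaneous libraries. This loss thus nearly coincides with the tissue of origin. Within IMPA the same mapping table ranks replicates 3 and 5 above the rest. This pair stood apart from the other 3 IMPA libraries in several genes below. Values without it are given where they change a call, and the choice to leave the pair out was made after the values were seen.

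As background, the platelet-derived growth factor receptors PDGFRA and PDGFRB mark fibroblast-like progenitors and mural cells, and the PDGFRA-positive interstitial cells of muscle are the cells from which fat in muscle is known to form. THY1 (CD90), NT5E (CD73) and ENG (CD105) are the classical positive markers of cultured mesenchymal stromal cells, which are defined in the same scheme by a lack of the blood and endothelial marker CD34. NCAM1 (CD56) is a cell adhesion molecule of myoblasts and neurons, CD44 is the main receptor of hyaluronan, and DPP4 (CD26) is a peptidase on the surface of early progenitors in the stroma of subcutaneous fat.

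The cells of the 2 tissues of origin differed in the RNA levels of these genes, and each tested difference had the same direction before and after induction. Only RNA was measured, not surface protein. By the interaction test below, the gap narrowed for PDGFRA, NT5E, DPP4 and most of all THY1, and it widened for CD44. On the log2 scale the THY1 difference was -1.45 for IMPA against SPA and -0.26 for IMA against SA. PDGFRA was the most abundant of the 9 genes in all 4 groups, and with PDGFRB, NT5E and THY1 it was higher in the subcutaneous cells both before and after induction. CD44, DPP4 and ENG were higher in the intramuscular cells, and NCAM1 was at 42.5 FPKM or more there while it was at or near 0 in every subcutaneous library. After induction PDGFRA and DPP4 fell in both cell types, CD44 rose in the intramuscular cells, and THY1, PDGFRB, NT5E and ENG fell in the subcutaneous cells. As these are bulk samples, fewer cells of a type and less RNA per cell cannot be told apart.

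**Figure D1:**
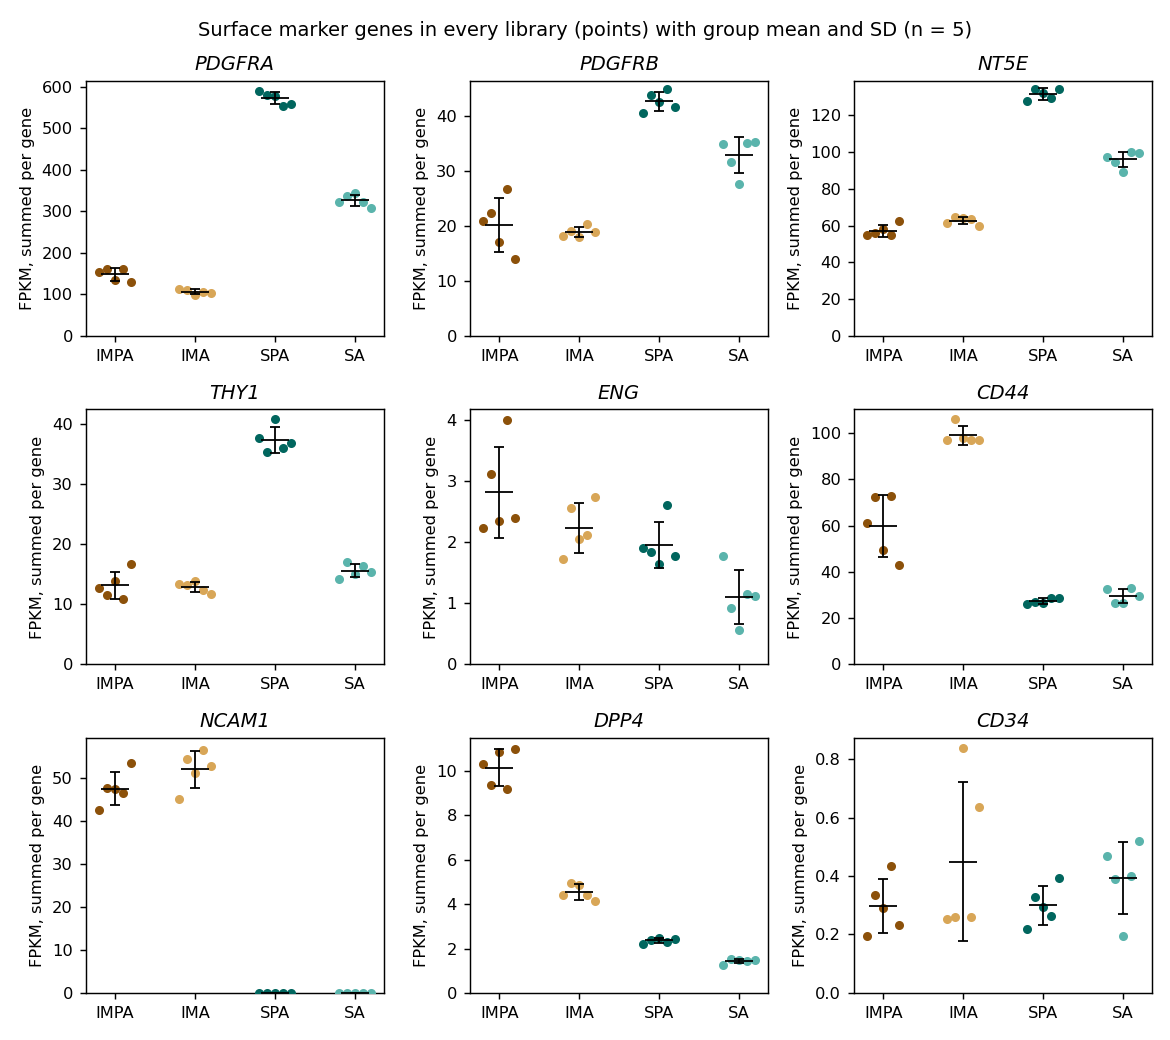
FPKM of the 9 surface marker genes (vertical axis, transcripts summed per gene, each panel with its own scale from 0) in the 4 groups. Points are the 5 libraries of a group from replicate 1 at the left to replicate 5 at the right, the long bar is the mean and the whiskers are 1 SD. PDGFRA reaches 589 FPKM in SPA, and NCAM1 lies at the foot of its panel in all 10 subcutaneous libraries.

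Differences were taken on the log2(FPKM + 1) scale, which understates the change of genes with low levels, and tested with limma over the 11432 genes with a mean of at least 1 FPKM. Of the 9 genes, 8 passed this filter and CD34 did not. With a Benjamini-Hochberg adjusted p under 0.05, 4 of the 8 genes were called between IMA and IMPA (2 higher, 2 lower), where 60.1% of all tested genes were called, 19.9% higher and 40.2% lower. Between SA and SPA 6 genes were called, all of them lower, against 52.1% of all genes in either direction and 26% lower. All 8 genes were called between IMPA and SPA, and all 8 between IMA and SA, each time 4 higher and 4 lower in the intramuscular cells, where 75.1% of all genes (42.3% higher, 32.9% lower) and 72.4% (29% higher, 43.4% lower) were called. Libraries of the groups compared did not overlap for 3 of the 8 genes between IMA and IMPA (43.5% of all genes), for 5 between SA and SPA (38.8%), for 7 between IMPA and SPA (63.4%) and for 7 between IMA and SA (58.6%). The change at induction differed between the cell types for 5 of the 8 genes, 4 with a higher and 1 with a lower value of the intramuscular change (interaction over the 20 libraries), and for 55.3% of all genes, 20.7% higher and 34.6% lower. With 8 genes, nothing is read from these counts beyond the values of each gene.

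**Figure D2:**
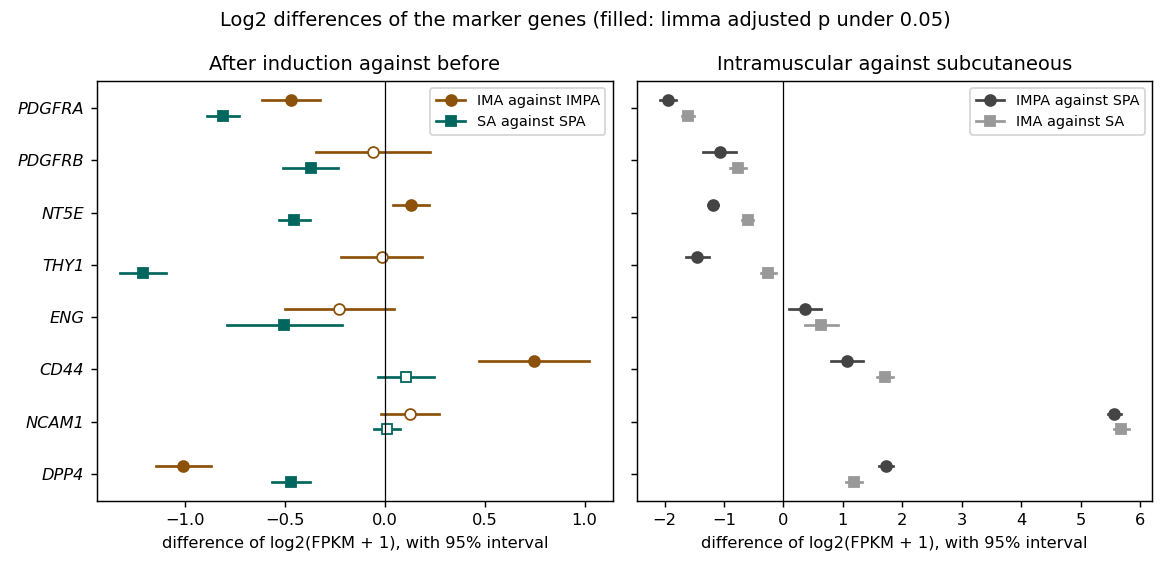
Differences of mean log2(FPKM + 1) with their 95% intervals (horizontal axes) for the 8 tested genes, after against before induction on the left and intramuscular against subcutaneous on the right. Filled symbols have a limma adjusted p under 0.05. On the left only the subcutaneous squares of PDGFRB, THY1 and ENG and not the intramuscular circles are filled, and on the right NCAM1 lies beyond 5 on the log2 scale.

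PDGFRA, the receptor of PDGF-A, PDGF-B and PDGF-C dimers, had 154, 162, 134, 161 and 131 FPKM in IMPA replicates 1 to 5 and 114, 112, 99.1, 105 and 103 FPKM in IMA. The corresponding SPA libraries had 589, 581, 578, 554 and 559 FPKM, and those of SA 323, 336, 343, 322 and 309 FPKM. None of the 4 groups overlapped with another, and they were ordered SPA, SA, IMPA, IMA from high to low. The mean in SPA was 3.86 times that in IMPA, a difference of IMPA against SPA of -1.95 ± 0.06 on the log2 scale (SE; limma adjusted p = 1.5e-11). From day 0 to day 3 PDGFRA fell by 0.47 ± 0.07 in the intramuscular cells (limma, adjusted p = 9e-05) and by 0.81 ± 0.04 in the subcutaneous cells (adjusted p = 3.1e-09), and 150 of the 11432 genes fell further than it did in the latter. The subcutaneous fall was larger by 0.34 (interaction, limma adjusted p = 0.00097). After induction SA still had 3.06 times the PDGFRA level of IMA.

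PDGFRB, the second receptor, which binds PDGF-B and PDGF-D and marks pericytes, had 20.9, 22.3, 17.0, 26.6 and 14.1 FPKM in IMPA and 18.1, 19.0, 18.1, 20.4 and 18.9 FPKM in IMA. Its levels were 40.5, 43.8, 42.5, 44.8 and 41.6 FPKM in SPA and 34.8, 31.6, 27.7, 35.1 and 35.3 FPKM in SA. The intramuscular groups overlapped with each other and lay below every subcutaneous library. Before induction the difference of IMPA against SPA was -1.07 ± 0.13 (limma, adjusted p = 7.5e-06), and after induction that of IMA against SA was -0.76 ± 0.06 (adjusted p = 9.8e-08). PDGFRB fell in the subcutaneous cells by 0.37 ± 0.06 (limma, adjusted p = 0.00036). In the intramuscular cells the difference was -0.06, with a 95% interval from -0.34 to 0.23 (adjusted p = 0.71). Without IMPA replicates 3 and 5, which were the lowest of the group, it was -0.28 (adjusted p = 0.0075), and without IMPA replicate 4, the highest, it was 0.045 (adjusted p = 0.75). The interaction did not pass (0.31, adjusted p = 0.093). It passed without IMPA replicate 4 (0.41, adjusted p = 0.011) and with quantile normalization (0.40, adjusted p = 0.044), and was smaller without IMPA replicate 5 (0.20, adjusted p = 0.18) and without the pair 3 and 5 (0.089, adjusted p = 0.48).

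The ratio of PDGFRA to PDGFRB, which does not depend on the scaling of a library, was higher in the subcutaneous than in the intramuscular cells at either stage. It was 7.58 ± 1.18 (SD, n = 5) in IMPA, 5.65 ± 0.435 in IMA, 13.4 ± 0.774 in SPA and 10.0 ± 1.5 in SA. Unlike PDGFRA itself, it overlapped between IMPA (6.05 to 9.31) and IMA (5.18 to 6.30), between SPA (12.4 to 14.5) and SA (8.74 to 12.4), and between SA and IMPA. Between IMPA and SPA and between IMA and SA the two-sided exact permutation test gave p = 0.00794, the smallest that 5 libraries against 5 allow, and for the change at induction it gave p = 0.0159 in either cell type.

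Among the mesenchymal stromal markers, NT5E, the ecto-5'-nucleotidase that makes adenosine outside the cell, was the most abundant. Its levels were 54.6, 56.1, 58.3, 54.6 and 62.3 FPKM in IMPA, 61.6, 64.6, 64.2, 63.5 and 59.9 FPKM in IMA, 128, 134, 132, 129 and 134 FPKM in SPA, and 97.0, 94.4, 89.3, 99.8 and 99.2 FPKM in SA. The subcutaneous groups stood apart from each other and from the intramuscular libraries, whereas IMPA and IMA overlapped in IMPA replicate 5. NT5E was lower in IMPA than in SPA by 1.19 ± 0.04 on the log2 scale (limma, adjusted p = 2.8e-11), and lower in IMA than in SA, where the difference was -0.60 ± 0.04 (adjusted p = 7.9e-09). It moved in opposite directions at induction, with a rise of 0.13 ± 0.04 in the intramuscular cells (limma, adjusted p = 0.016) and a fall of 0.45 ± 0.03 in the subcutaneous cells (adjusted p = 4.3e-07). The interaction was 0.58 (adjusted p = 1.3e-08). The small intramuscular rise was no longer called when the mRNA tables were scaled to the same sum (0.10, adjusted p = 0.058).

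THY1, a glycolipid-anchored protein of fibroblasts and T cells, showed the widest gap between the 2 changes. There were 12.8, 11.6, 13.8, 10.9 and 16.7 FPKM in IMPA and 13.4, 13.2, 13.9, 12.4 and 11.8 FPKM in IMA. SPA stood far above them, with 37.6, 35.4, 40.9, 36 and 36.9 FPKM, and SA came close to them, with 14.2, 17.0, 15.1, 16.3 and 15.4 FPKM. THY1 fell in the subcutaneous cells by 1.21 ± 0.05 (limma, adjusted p = 2.4e-09), so that SPA had 2.39 times the mean of SA, and 49 of the 11432 genes fell further. In the intramuscular cells the difference was -0.01, with an interval from -0.22 to 0.19 (adjusted p = 0.91), and its sign changed with the libraries and the scaling used. The interaction was 1.19 ± 0.11 (limma, adjusted p = 1.1e-08). The difference between the cell types was -1.45 ± 0.09 before induction (IMPA against SPA, adjusted p = 1.4e-08) and -0.26 ± 0.06 after it (IMA against SA, adjusted p = 0.0011).

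ENG, a co-receptor of the TGF-beta family, was present at low levels only, with 2.23, 3.12, 2.34, 4.00 and 2.40 FPKM in IMPA and 1.72, 2.56, 2.06, 2.12 and 2.74 FPKM in IMA. SPA had 1.90, 1.84, 1.65, 2.61 and 1.77 FPKM and SA 1.78, 0.926, 0.566, 1.15 and 1.12 FPKM. Neighbouring groups overlapped, and SA replicate 1 lay within the SPA range. ENG fell in the subcutaneous cells (-0.50 ± 0.13; limma, adjusted p = 0.007), and the difference in the intramuscular cells did not pass (-0.23, interval from -0.50 to 0.05; adjusted p = 0.14). It was higher in IMA than in SA (0.63 ± 0.13; adjusted p = 0.00058). It was also higher in IMPA than in SPA (0.36 ± 0.12; adjusted p = 0.018), a call that was lost with quantile normalization (adjusted p = 0.20). The call was also lost when transcripts were fitted in place of sums (adjusted p = 0.056). As ENG has 1 transcript, its values and its difference were the same there, and only the fit and the adjustment over transcripts differed.

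CD34, the sialomucin found on blood stem cells, endothelium and freshly isolated fat stroma, was below 1 FPKM in all 20 libraries. In IMPA it ranged from 0.195 to 0.435 FPKM (median 0.292), in IMA from 0.253 to 0.839 (median 0.260), in SPA from 0.220 to 0.394 (median 0.293) and in SA from 0.194 to 0.519 (median 0.399). The 4 groups overlapped. Two-sided exact permutation tests gave p = 0.333 for IMA against IMPA, 0.198 for SA against SPA, 0.984 for IMPA against SPA and 0.754 for IMA against SA. The FPKM table holds no counts from which to say how small a difference could have been seen at these levels.

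CD44, the hyaluronan and osteopontin receptor, was higher in the intramuscular cells and rose there after induction. IMPA had 61.3, 72.3, 49.2, 72.7 and 43.0 FPKM and IMA 96.9, 106, 98.0, 96.9 and 96.8 FPKM, while SPA had 26.2, 26.8, 26.6, 28.6 and 28.6 FPKM and SA 32.6, 26.7, 26.5, 33.0 and 29.5 FPKM. Every IMA library lay above every IMPA library, every IMPA library above every subcutaneous one, and the 2 subcutaneous groups overlapped. The rise was 0.75 ± 0.13 (limma, adjusted p = 0.00031), and 364 of the 11432 genes rose further. IMPA replicates 3 and 5 were again the lowest of their group, and without them the rise was 0.52 (adjusted p = 4.6e-05). In the subcutaneous cells the difference was 0.11, with an interval from -0.03 to 0.25 (adjusted p = 0.17), and the interaction was 0.64 ± 0.15 (limma, adjusted p = 0.0011). IMA had 3.33 times the CD44 level of SA (1.71 ± 0.06; adjusted p = 6.6e-12), and IMPA 2.18 times that of SPA (1.07 ± 0.13; adjusted p = 6.3e-06).

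NCAM1, which myoblasts carry on their surface before and during fusion, split the cultures by tissue. IMPA had 42.5, 47.5, 47.3, 46.3 and 53.3 FPKM and IMA 45.0, 54.2, 51.0, 56.4 and 52.7 FPKM. The SPA libraries were at 0.0416, 0.0151, 0, 0.0117 and 0.0188 FPKM and those of SA at 0, 0, 0.0238, 0.0533 and 0.0584 FPKM. The lowest intramuscular library was thus at 42.5 FPKM and the highest subcutaneous one at 0.0584 FPKM, and no fold is given against levels at or near 0. The difference was 5.57 ± 0.05 for IMPA against SPA (limma, adjusted p = 6.4e-16), which 25 of the 11432 genes exceeded, and 5.68 ± 0.06 for IMA against SA (adjusted p = 5.9e-18). At induction IMA against IMPA gave 0.13, with an interval from -0.02 to 0.27 (adjusted p = 0.12), and SA against SPA gave 0.01 (adjusted p = 0.73). The intramuscular difference passed the threshold when IMPA replicate 5 (0.17, adjusted p = 0.034), IMA replicate 1 (0.18, adjusted p = 0.024) or the IMPA pair 3 and 5 (0.18, adjusted p = 0.041) was left out, with upper-quartile scaling (0.17, adjusted p = 0.045) and with the replicate number as a block (adjusted p = 0.042). The interaction did not pass (0.11, adjusted p = 0.23).

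DPP4 was the marker that fell furthest in the intramuscular cells. It had 10.3, 9.38, 10.8, 9.20 and 11.0 FPKM in IMPA and 4.42, 4.97, 4.85, 4.39 and 4.12 FPKM in IMA, against 2.22, 2.39, 2.47, 2.31 and 2.45 FPKM in SPA and 1.28, 1.51, 1.47, 1.44 and 1.5 FPKM in SA. No group overlapped with another, and the order from high to low was IMPA, IMA, SPA, SA. The mean of IMPA was 2.23 times that of IMA, a fall of 1.01 ± 0.06 (limma, adjusted p = 1.2e-07) that 43 of the 11432 genes exceeded, and the fall in the subcutaneous cells was 0.47 ± 0.04 (adjusted p = 2.3e-06). The interaction was -0.54 ± 0.08 (limma, adjusted p = 4.4e-06), the single negative one among the 5 called. IMPA had 4.28 times the DPP4 level of SPA (1.72 ± 0.05; adjusted p = 1.6e-11) and IMA 3.16 times that of SA (1.18 ± 0.06; adjusted p = 2.6e-10).

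Set side by side within a group, the 9 genes kept much the same order before and after induction. In IMPA the means were ordered PDGFRA, CD44, NT5E, NCAM1, PDGFRB, THY1, DPP4, ENG and CD34, where CD44 overlapped with both NT5E and NCAM1, and THY1 overlapped with PDGFRB and with DPP4. IMA had the same order, with an overlap of PDGFRA (99.1 to 114 FPKM) and CD44 (96.8 to 106 FPKM). In SPA the order was PDGFRA, NT5E, PDGFRB, THY1, CD44, DPP4, ENG, CD34 and NCAM1, where PDGFRB overlapped with THY1 and DPP4 with ENG. SA differed from it in that CD44 stood above THY1, and there PDGFRB overlapped with CD44 and DPP4 with ENG. The 9 genes summed to 359 ± 25.9 FPKM in IMPA, 359 ± 10.5 in IMA, 816 ± 13.1 in SPA and 504 ± 7.26 in SA (SD, n = 5). The sum differed between SA and SPA (two-sided exact permutation test, p = 0.00794) but not detectably between IMA and IMPA (exact permutation p = 0.976), where the fall of PDGFRA and the rise of CD44 were of like size. PDGFRA made up 41.3% ± 1.5 of the sum in IMPA, 29.7% ± 1.45 in IMA, 70.1% ± 0.786 in SPA and 64.8% ± 2.21 in SA. The ratio of NT5E to THY1 was 4.41 ± 0.509 in IMPA, 4.87 ± 0.249 in IMA, 3.53 ± 0.223 in SPA and 6.17 ± 0.486 in SA, and it differed between SA and SPA (exact permutation p = 0.00794) and did not pass between IMA and IMPA (exact permutation p = 0.111).

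At the level of transcripts, most genes rested on a single abundant form. For CD44, with 8 transcripts, XM_018059249.1 held 93.2% ± 0.595 of the sum in IMPA, and its mean was 55.6 FPKM in IMPA, 94.0 in IMA, 25.0 in SPA and 27.6 in SA. XM_005681627.3 held 85.8% ± 1.02 of PDGFRA in IMPA among 5 transcripts, XM_018050163.1 held 99.6% ± 0.543 of PDGFRB and XM_018059657.1 held 98.4% ± 1.91 of THY1, each of these among 2. DPP4 was carried by XM_005676046.3 (88.5% ± 7.06 in IMPA), and NT5E and ENG had 1 transcript each. NCAM1 and CD34 were the exceptions. For CD34, at its low level, XM_018060790.1 and XM_018060788.1 each held from 0% to 100% of the sum in the IMPA libraries. The 16 transcripts of NCAM1 shared the sum unevenly between libraries of the same group, and its leading form, XM_018059775.1, made up from 44.2% to 90.3% of the sum in the IMPA libraries. The SD of this form was 10.2 FPKM in IMPA (mean 32.6) and 13.6 FPKM in IMA (mean 28.9), while that of the NCAM1 sum was 3.87 and 4.32 FPKM. When the most abundant transcript stood for the gene, NCAM1 gave -0.32 for IMA against IMPA (limma, adjusted p = 0.62), opposite in sign to the sum. XM_018059781.1 had a mean of 3.61 ± 2.00 FPKM in IMPA and 9.67 ± 3.79 in IMA. Because the forms overlap in sequence, the split of reads among them is uncertain, and the sum is the steadier measure.

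**Figure D3:**
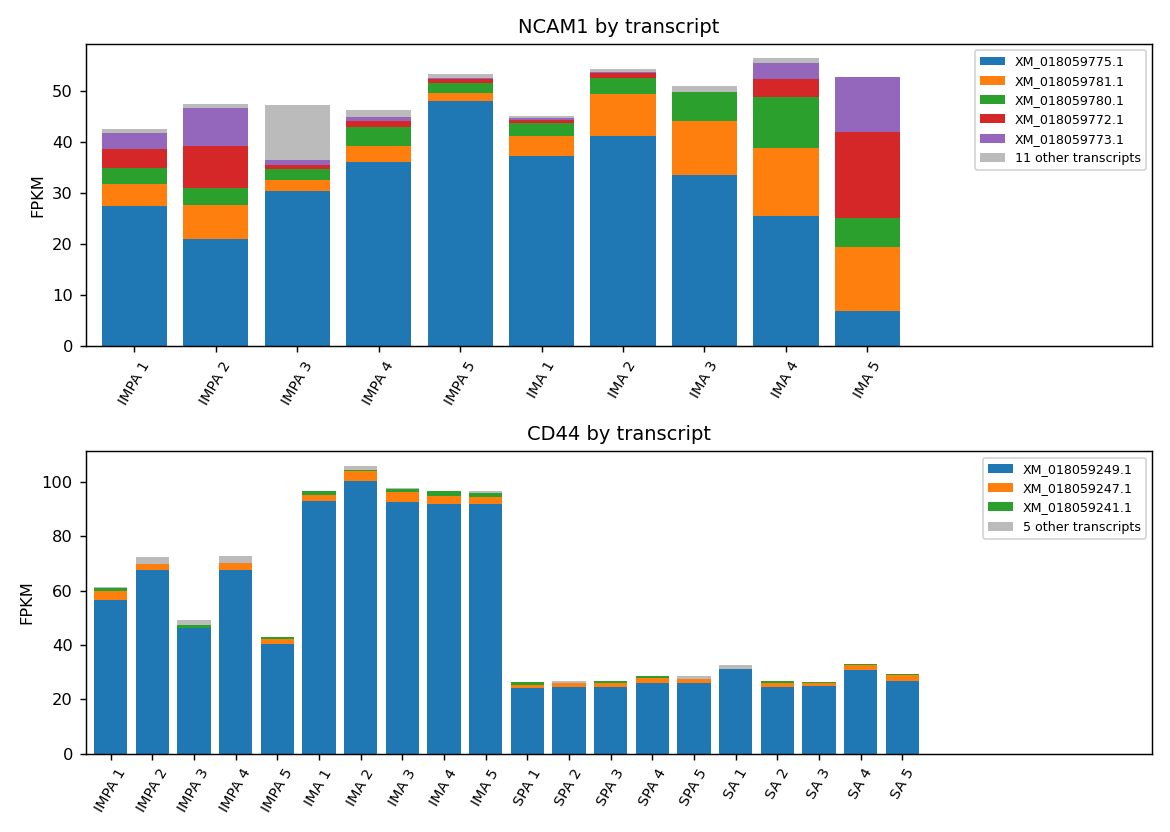
FPKM of NCAM1 in the 10 intramuscular libraries (top) and of CD44 in the 20 libraries (bottom), stacked by transcript, with each bar starting at 0 and the gray part holding the less abundant transcripts together. The NCAM1 bars are of like height although their parts differ, with XM_018059775.1 smallest in IMA replicate 5. In every CD44 bar XM_018059249.1 makes up nearly the whole height.

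To place these markers, lists of genes known from other cell types were read in the same libraries. Their counts of called genes stand beside the shares of all tested genes given above, such as 75.1% between IMPA and SPA. The satellite cell and myoblast list, of which 11 genes were in the table, summed to between 889 and 1022 FPKM in IMPA, 955 and 1052 in IMA, 72.0 and 80.5 in SPA and 79.2 and 88.4 in SA, where 9 of the 11 genes had a mean under 1 FPKM in both subcutaneous groups. The subcutaneous sums came mostly from SDC4, at 74.8 ± 3.21 FPKM in SPA and 80.5 ± 3.61 in SA. SDC4 had lower means in the intramuscular groups, at 53.7 ± 11.5 FPKM in IMPA and 46.0 ± 3.26 in IMA. Of the 10 tested genes 9 were higher and 1 lower in IMPA than in SPA, with a median difference of 4.10 against 0.05 over all tested genes, and the same counts were found for IMA against SA (median 4.52 against -0.09). MYOG, the transcription factor of muscle differentiation, had 649 ± 66.9 FPKM in IMPA and 736 ± 35.0 in IMA and did not exceed 0.619 FPKM in any SPA library or 0.397 FPKM in any SA library. PAX7, the factor that defines satellite cells, ranged from 10.1 to 15.2 FPKM in IMPA and from 10.7 to 14.9 FPKM in IMA, and its highest subcutaneous value was 0.0443 FPKM. MYOD1 ranged from 40.8 to 44.9 FPKM in IMPA and from 23.2 to 29.3 FPKM in IMA, and was listed at 0 in 5 of 5 SPA and 4 of 5 SA libraries. NCAM1 was thus high in the same libraries as these muscle genes. Within IMPA, replicates 3 and 5 had the largest satellite list sums (1020 and 1022 FPKM, the other 3 libraries from 889 to 910) and the smallest fibroblast matrix sums (6841 and 6292 FPKM, the others from 7498 to 8814), together with the lowest PDGFRA, PDGFRB and CD44. The same pair had the highest THY1 (13.8 and 16.7 FPKM), NT5E (58.3 and 62.3 FPKM) and DPP4 (10.8 and 11.0 FPKM) of the group, so the stromal markers did not move one way in it.

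The fibroblast matrix list (10 genes) summed to between 6292 and 8814 FPKM in IMPA, 8492 and 9352 in IMA, 12665 and 13525 in SPA and 12534 and 13509 in SA. Its gap between the tissues went along with that of PDGFRA and was carried mostly by DCN, the collagen-binding proteoglycan decorin, at 660 ± 103 FPKM in IMPA against 5441 ± 135 in SPA. Of the 10 genes 2 were higher and 5 lower in IMPA than in SPA. In the intramuscular cells 4 were higher and 2 lower after induction, led by FN1, which codes for fibronectin (1.54 ± 0.10; limma, adjusted p = 1.5e-07).

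Endothelial markers were close to absent. Of the 10 genes 9 had a mean under 1 FPKM in every group, the exception being ERG, with 4.77 ± 0.937 FPKM in IMPA and 1.24 ± 0.124 in SPA. The highest value of PECAM1 in any library was 0.380 FPKM and that of CDH5 was 0.111 FPKM, so the CD34 values went with low levels of both. In the haematopoietic list PTPRC (CD45) did not exceed 0.0107 FPKM in any library, while CD14, a receptor for lipopolysaccharide, had 5.91 ± 1.74 FPKM in IMPA, 9.93 ± 1.03 in IMA, 14.5 ± 1.03 in SPA and 13.0 ± 1.16 in SA. Of its 2 tested genes, CD14 and CD68, both rose after induction in the intramuscular cells and both were lower in IMPA than in SPA.

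The adipocyte list (9 genes in the table) summed to between 11.0 and 14.4 FPKM over all 20 libraries, with 7 genes under 1 FPKM in IMPA, IMA and SPA and 5 in SA. Among the 3 tested genes CEBPA, a transcription factor of fat cells, had 9.23 ± 0.428 FPKM in IMPA and 5.05 ± 0.368 in SPA, and CIDEC, a lipid droplet protein gene, 0.333 ± 0.113 in IMPA and 4.65 ± 0.688 in SPA. PPARG, the master regulator of fat cell formation, ranged from 0.328 to 0.577 FPKM in IMPA, 0.197 to 0.475 in IMA, 0.474 to 0.779 in SPA and 0.681 to 1.26 in SA. ADIPOQ, the adiponectin gene, stayed below 0.6 FPKM in every library. DLK1, a preadipocyte marker, reached at most 0.0421 FPKM in IMPA, 0.0729 in IMA, 0.269 in SPA and 0.266 in SA. ADIPOQ, DLK1 and, outside SA, PPARG were thus under 1 FPKM in the libraries labelled preadipocyte and adipocyte. The study itself reports lipid droplets by Oil Red O staining after differentiation, and less Pref-1 (another name of DLK1) than in preadipocytes. DLK1 was too low here to be tested for a change. Its means were 0.0114 ± 0.0183 FPKM in IMPA, 0.0316 ± 0.0265 in IMA, 0.145 ± 0.115 in SPA and 0.157 ± 0.0915 in SA. They were not lower at day 3, but lie too near 0 to judge the reported fall. At induction 1 of the 3 tested genes was higher and 1 lower in either cell type. CEBPA fell to 5.42 ± 0.628 FPKM in IMA (-0.68 ± 0.06; limma, adjusted p = 4.3e-06), and CD36, the fatty acid transporter, rose in both cell types, from 0.252 ± 0.125 to 4.91 ± 0.356 FPKM in the intramuscular cells (limma, adjusted p = 2.8e-10) and from 0.0679 ± 0.0277 to 0.934 ± 0.360 FPKM in the subcutaneous cells (adjusted p = 2.6e-05). Among the adipocyte genes too low to be tested, LPL had 0.549 ± 0.0395 FPKM in SPA and 1.34 ± 0.271 in SA, without overlap. In the intramuscular cells LPL had 1.02 ± 0.247 FPKM in IMPA and 0.941 ± 0.172 in IMA. PPARG, PLIN1 and DGAT2 had higher means in SA than in SPA, and ADIPOQ and LEP lower ones. In the committed preadipocyte list (10 genes, 4 tested) F3, the tissue factor gene, fell with DPP4 in both cell types, and the list had 3 of 4 tested genes lower in IMPA than in SPA and none higher.

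The remaining lists are given by their counts. In the adventitial and interstitial progenitor list, whose cells carry DPP4 and PI16 in fat, 6 of 7 tested genes were lower in IMPA than in SPA and 1 was higher, a direction opposite to that of DPP4, with LY6E, for example, at 0.71 ± 0.131 FPKM in IMPA and 8.59 ± 1.19 in SPA, and PI16 was under 1 FPKM in every group. The pericyte and smooth muscle list had 5 of 7 tested genes higher and 1 lower in IMPA than in SPA, led by DES, the muscle intermediate filament gene, which rose from 573 ± 47.4 FPKM in IMPA to 1743 ± 114 in IMA, and MCAM, at 4.53 ± 0.468 FPKM in IMPA and 0.0409 ± 0.0226 in SPA. The gene that was lower in IMPA was CSPG4, at 1.68 ± 0.148 FPKM in IMPA against 4.46 ± 0.365 in SPA, without overlap. RGS5, a pericyte marker, was under 1 FPKM in every group. The Schwann cell list (3 of 8 genes tested) had SOX10 under 1 FPKM in every group and ERBB3 at 7.30 ± 1.14 FPKM in IMPA against 0.0214 ± 0.0139 in SPA, while S100B was lower in IMPA (30.9 ± 1.09 FPKM) than in SPA (43.3 ± 1.04 FPKM; limma, adjusted p = 4.9e-08). In the mesothelial and epithelial list both tested genes, MSLN and CDH1, were higher in IMPA than in SPA and in IMA than in SA. Of its 7 genes in the table, 5 had a mean under 1 FPKM in IMPA and in IMA, and 7 in SPA and in SA. The list of other mesenchymal stromal surface proteins (12 genes, 11 tested) summed to between 1538 and 1694 FPKM in IMPA, 1609 and 1761 in SPA and 1592 and 1735 in SA. In IMA it summed to between 1413 and 1465 FPKM, below every library of the other groups. Between IMPA and SPA 5 genes were higher and 5 lower in IMPA, with a median difference of 0.06 against 0.05 over all genes.

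**Figure D4:**
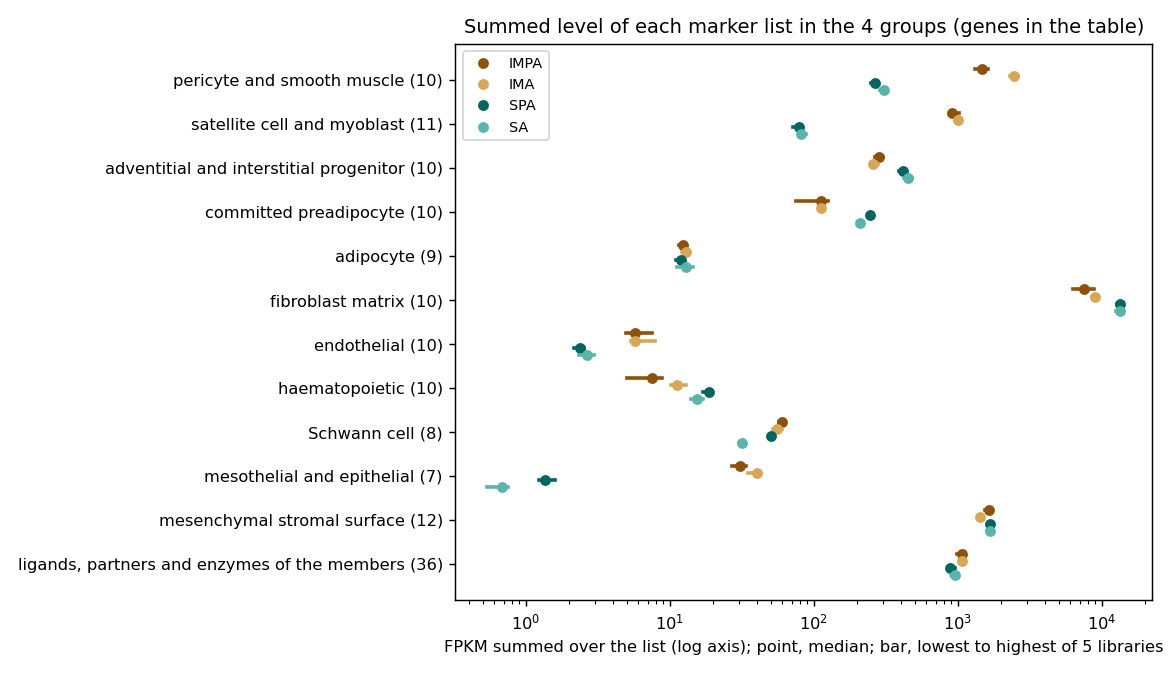
FPKM summed over each marker list (horizontal axis, log scale) in the 4 groups, with the median of 5 libraries as a point and their range as a bar, and the number of genes in the table in brackets. The satellite cell and myoblast sums lie between 889 and 1052 FPKM in the intramuscular groups and between 72.0 and 88.4 FPKM in the subcutaneous ones, the latter mostly from SDC4. The adipocyte sums of all 4 groups lie between 11.0 and 14.4.

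The ligands, partners and enzymes of the marker proteins were then followed, from a list of 37 genes of which 36 were in the table and 27 were tested. Between IMA and IMPA 7 of them were higher and 9 lower, between SA and SPA 7 and 11, and both between IMPA and SPA and between IMA and SA 15 and 10. Over all tested genes 19.9% were higher and 40.2% lower between IMA and IMPA, and 26.1% and 26% between SA and SPA. These shares were 42.3% and 32.9% between IMPA and SPA, and 29% and 43.4% between IMA and SA. The median difference of the list was 0.12 in IMPA against SPA (0.05 over all genes) and -0.05 in IMA against IMPA (-0.09 over all genes).

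The ligands of the PDGF receptors ran against the receptors in their tissue, apart from PDGFD. PDGFA had 18.0 ± 2.14 FPKM in IMPA and 15.4 ± 0.868 in IMA but 0.487 ± 0.121 in SPA and 0.756 ± 0.248 in SA (IMPA against SPA 3.67 ± 0.08; limma, adjusted p = 4.9e-13). PDGFB was found at 3.93 ± 0.832 FPKM in IMPA and 4.46 ± 0.449 in IMA, and its highest subcutaneous value was 0.0463 FPKM. PDGFC, at 25.5 ± 1.18 FPKM in IMPA and 22.6 ± 0.878 in IMA, was the most abundant intramuscular ligand and had 8.96 ± 0.423 FPKM in SPA and 7.83 ± 0.824 in SA. PDGFD, a ligand of PDGFRB, was higher in the subcutaneous cells, with 56.1 ± 2.34 FPKM in SPA and 47.3 ± 3.23 in SA against 22.2 ± 1.83 in IMPA and 18.5 ± 1.08 in IMA (IMPA against SPA -1.30 ± 0.05; adjusted p = 2.2e-10). The intramuscular cells thus combined higher PDGFA, PDGFB and PDGFC with lower levels of both receptors.

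For CD44, HAS2 and SPP1 rose in the intramuscular cells as the receptor did, whereas HAS3, another hyaluronan synthase and too low to be tested, had 1.00 ± 0.179 FPKM in IMPA and 0.610 ± 0.0640 in IMA. HAS2, the main hyaluronan synthase of mesenchymal cells, rose from 27.7 ± 2.94 FPKM in IMPA to 71.2 ± 13.4 in IMA (1.31 ± 0.13; limma, adjusted p = 4.1e-06) and fell from 20 ± 1.9 FPKM in SPA to 10.1 ± 0.912 in SA (-0.91 ± 0.07; adjusted p = 4.7e-07), and the interaction was 2.23 ± 0.15 (adjusted p = 7.3e-11). SPP1, which codes for the ligand osteopontin, rose from 41.1 ± 5.60 to 79.2 ± 8.07 FPKM in the intramuscular cells (limma, adjusted p = 4.9e-06). It was also higher in SA (22.9 ± 2.49 FPKM) than in SPA (18.2 ± 1.67 FPKM), without overlap, although CD44 did not pass there. EZR, ezrin, which ties CD44 to actin, rose from 24.2 ± 0.577 FPKM in SPA to 55.1 ± 2.26 in SA (1.15 ± 0.03; adjusted p = 1.3e-10) while CD44 itself did not pass there.

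ST8SIA4, a polysialyltransferase that modifies NCAM1, followed it by tissue, with 6.18 ± 0.566 FPKM in IMPA, 5.29 ± 0.778 in IMA, 0.170 ± 0.0484 in SPA and 0.178 ± 0.0562 in SA. ST8SIA2, the other such enzyme in the list, was also found in the subcutaneous cells. It had 1.76 ± 0.143 FPKM in IMPA, 2.76 ± 0.404 in IMA, 1.28 ± 0.0959 in SPA and 0.708 ± 0.0814 in SA. ITGA4, the subunit of the integrin that binds VCAM1, had 45.9 ± 3.11 FPKM in IMPA and 32.6 ± 2.71 in IMA against 0.254 ± 0.0461 in SPA and 0.399 ± 0.0699 in SA. ACVRL1, the type I receptor that works with endoglin, ran the other way to ENG between the tissues, with 0.446 ± 0.118 FPKM in IMPA against 11.7 ± 0.946 in SPA (-3.14 ± 0.07; limma, adjusted p = 5.8e-13). The chemokine gene CXCL12, whose product DPP4 cleaves, fell with DPP4 in both cell types, from 16.7 ± 7.26 to 6.08 ± 0.507 FPKM (limma, adjusted p = 0.00096) and from 108 ± 6.70 to 58.5 ± 5.27 FPKM (adjusted p = 2.6e-07). Its 2 falls did not differ detectably (interaction -0.35, limma adjusted p = 0.28), but they did without IMPA replicate 5 (-0.55, adjusted p = 0.028) and without IMPA replicates 3 and 5 (-0.79, adjusted p = 2.1e-05). FAP, the membrane peptidase most closely related to DPP4, was higher in the subcutaneous cells, with 99.9 ± 3.53 FPKM in SPA against 49.4 ± 4.81 in IMPA. CXCL12 likewise ran against DPP4 between the tissues (IMPA against SPA -2.72 ± 0.24; limma, adjusted p = 3.8e-07). ADA, another listed partner of DPP4, did not fall with it. Its level was 3.92 ± 0.512 FPKM in IMPA and 5.91 ± 0.166 in IMA, without overlap. It was 6.06 ± 0.640 FPKM in SPA and 6.94 ± 0.610 in SA, with overlap.

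**Figure D5:**
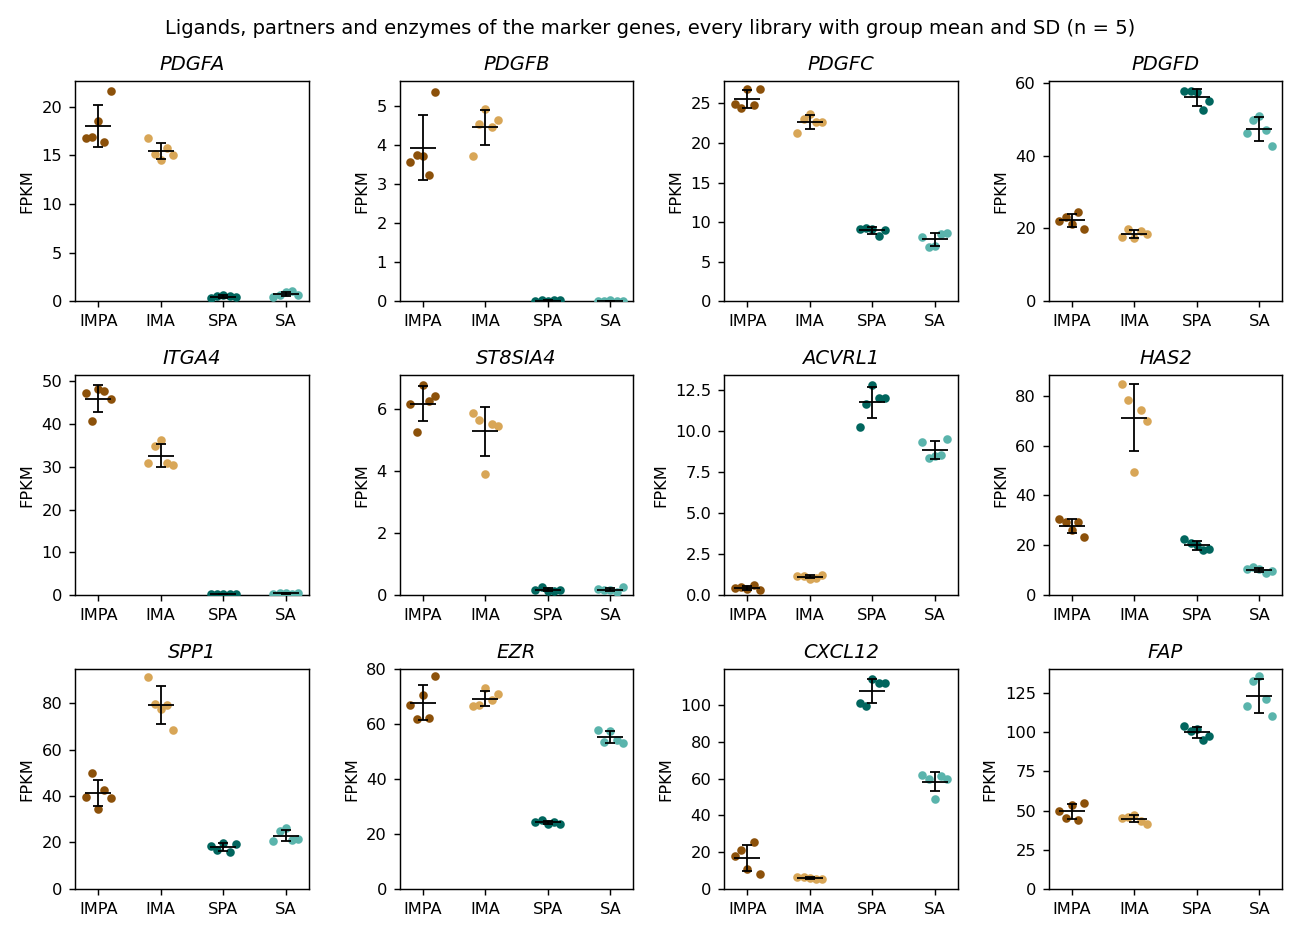
FPKM of 12 ligands, partners and enzymes (vertical axes from 0) in the 4 groups, with the 5 libraries as points, the mean as a bar and 1 SD as whiskers. PDGFA, PDGFB, ITGA4 and ST8SIA4 lie near 0 in every subcutaneous library, ACVRL1 lies below 2 FPKM in every intramuscular one, and HAS2 moves up from IMPA to IMA and down from SPA to SA.

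The genes whose pattern over the 20 libraries came closest to that of a marker were listed for the 3 genes with the widest range of group means, by the root mean square difference of log2(FPKM + 1) after each gene was centred on its own mean. For NCAM1 these were AIF1L (0.15), LOC108633440 (0.21) and CHRNG (0.34), the last of which codes for the embryonic subunit of the muscle acetylcholine receptor. AIF1L had 54.7 ± 5.29 FPKM in IMPA, 59.4 ± 6.79 in IMA, 0.290 ± 0.124 in SPA and 0.383 ± 0.125 in SA. PDGFRA had ISLR, IL1R1 and ID2 as its nearest genes (0.16 each), and ISLR, for example, had 11.3 ± 2.41 FPKM in IMPA, 6.07 ± 0.418 in IMA, 44.2 ± 1.09 in SPA and 25.1 ± 1.20 in SA. DPP4 was matched most closely by MBP (0.11), the myelin basic protein gene, at 21.7 ± 0.876 FPKM in IMPA, 11.0 ± 0.633 in IMA, 6.75 ± 0.138 in SPA and 3.95 ± 0.254 in SA, followed by RPRM (0.17) and UPK1B (0.22). As the 20 points fall into 4 groups, this likeness describes the group means more than the libraries within a group.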

How the data were processed

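The authors aligned reads of stranded libraries from 20 cultures to the goat genome ARS1 with HISAT2 2.0.4 and calculated expression with StringTie 1.3.1 and Ballgown. The deposited unit is FPKM per transcript and library. The table holds no counts, so no counting error was computed and what a low value can show is limited. FPKM values of the mRNA table were summed per official symbol (20587 symbols), without further scaling, and log2(FPKM + 1) was compared for the 11432 genes with a mean of at least 1 FPKM. Each pair of groups was fitted on its 10 libraries with limma 3.58.1 (R 4.3.3, variance trend, Benjamini-Hochberg adjustment over all genes, threshold 0.05), and the interaction over all 20. For CD34, ratios and sums an exact permutation test (two-sided, 252 divisions, unadjusted) was used. Intervals are at 95%. Tables and plots were made with Python 3.11.15, pandas 2.3.3 and matplotlib 3.10.9, and the fits were tested on simulated data.

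The marker genes, the 12 other lists and the tests were chosen with earlier results of these data known. Named are all marker genes, examples from the largest non-overlapping called differences of each list (up to 3 per comparison, not all of which are printed), the 3 nearest genes of NCAM1, PDGFRA and DPP4, and PTPRC, PECAM1, CDH5, PAX7, MYOD1, MYOG, ADIPOQ, DLK1 and PPARG. PDGFB, PDGFC, PDGFD, HAS3, ST8SIA2, ST8SIA4, FAP, ADA, TCF4, PI16, RGS5 and SOX10 were named for their role after their values were seen. Of the genes listed, VCAM1, FABP4, MYMK and UPK3B were not analysed here, and BMP9 was followed under its symbol GDF2. Alternatives were a pseudocount of 0.1, a minimum mean of 0.1 FPKM, no filter, 3 other scalings, a fit of 20 libraries at once, no variance trend, blocking by replicate number, the most abundant transcript, and leaving out libraries. Libraries were left out 1 at a time, and SPA replicate 1 and SA replicate 5 also together. Leaving out IMPA replicates 3 and 5 together was added after seeing the data. Nucleotide and protein sequences were not used here.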

Additional observations from a re-analysis of the deposited data

Results flagged for a closer look

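Of 36 sets of 5 values (9 genes in 4 groups), 2 held a library that lay far from the other 4, where chance alone gives about 1 in 20. ENG had 2.61 FPKM in SPA replicate 4, and the nearest SPA library had 1.9 FPKM. CD44 had 106 FPKM in IMA replicate 2, and the nearest IMA library had 98 FPKM. Both are the highest value of their group.

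For 5 genes the change at induction differed between the intramuscular and the subcutaneous cells by the interaction test over 20 libraries in limma. The difference of the 2 changes was 0.34 for PDGFRA (adjusted p = 0.00097), 1.19 for THY1 (adjusted p = 1.1e-08), 0.58 for NT5E (adjusted p = 1.3e-08), 0.64 for CD44 (adjusted p = 0.0011) and -0.54 for DPP4 (adjusted p = 4.4e-06). PDGFRA and DPP4 fell in both cell types by unequal amounts, NT5E rose in one and fell in the other, THY1 fell in the subcutaneous cells and CD44 rose in the intramuscular cells.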

How the results depend on the processing

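Of 928 values of single marker genes under another setting, 907 kept direction and side of the threshold, 3 lost the call, 8 gained it and 10 changed sign, and of 2628 values of other named genes 2618, 7, 2 and 1 did. Marker genes called numbered between 3 and 6 in IMA against IMPA (4 as reported; 4 to 5 when any library was left out) and 7 or 8 in IMPA against SPA, and stayed at 6 in SA against SPA and 8 in IMA against SA, with 5 or 6 for the interaction. With transcripts fitted in place of sums and the most abundant one read out per gene, 3786 genes were called between SA and SPA instead of 5957. Scaling the mRNA tables to the same sum gave 2327 higher and 4052 lower genes there (2982 and 2975 as reported), and quantile normalization gave 3027 and 3221 for the interaction (2368 and 3951 as reported). Signs that changed belonged, apart from CD36, to values that did not pass in either case. For IMA against IMPA these were PDGFRB (-0.17 to 0.045 with any library left out, above 0 without IMPA replicate 4), THY1 with upper-quartile scaling (0.024), quantile normalization (0.067), without the IMPA pair 3 and 5 (0.13) and without any of 4 single libraries (-0.072 to 0.070 with any library left out), and NCAM1 by its most abundant transcript (-0.32, and -0.32 for the interaction). CD36 in IMPA against SPA went from 0.22 to -0.27 with quantile normalization (adjusted p = 0.0011); the cause of these changes was not tested. Libraries of the same number correlated between -0.24 and 0.12 in their deviations from the group means, so a shared number was not taken as a pairing. With the replicate number as a block, 6826 genes were called in IMA against IMPA (6867 without it), and NCAM1 there passed the threshold (adjusted p = 0.042). What depth limits was not computed, since the table holds no counts.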
